A study of Homo sapiens with 6 samples.

Results

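The transcripts described here encode 8 surface ligands by which macrophages stimulate or restrain T cells: CD80, CD86, CD40, CD58, CD83, CD274 (PD-L1), PDCD1LG2 (PD-L2) and ICOSLG. They were listed by name, and all 8 were among the 17042 genes of the deposited count table. Polyadenylated RNA was sequenced from THP1, a human monocytic leukaemia cell line, in 3 knockdown libraries and 3 control libraries. In both groups PMA, a phorbol ester that makes these cells macrophages, was given at 100 ng/mL for 24 hours, and the cytokine IL-4 followed at 20 ng/mL for another 24 hours. The knockdown group (genotype label RP11-184M15.1 knockdown) carried siRNA against the long noncoding RNA RP11-184M15.1; the labels used here do not say when or how it was delivered. The control group has the genotype label WT, and the labels do not say what its cells received. The replicates are of a single cell line, and no label calls them separate cultures, so the p-values reflect only how far these libraries spread, and that spread may be technical.

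A T cell that meets antigen needs further signals from the presenting cell. CD80 and CD86 engage the activating receptor CD28 and the inhibitory receptor CTLA-4, ICOSLG engages ICOS, and CD58 engages CD2. CD40 works the other way round: it is a receptor on the macrophage, triggered by CD40 ligand on the T cell, and it switches on NF-kB. CD274 and PDCD1LG2 bind PD-1 and dampen the T cell. CD83, a marker of mature dendritic cells, slows the removal of CD86 and MHC class II molecules from the surface by the ubiquitin ligase MARCH1.

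Library totals ran from 12029360 to 14181343 counts in the knockdown group and from 10450043 to 12113848 in the controls. No gene of the table carries the name RP11-184M15.1, so the level of the targeted RNA is not analysed here. The macrophage genes CSF1R (1719 CPM in knockdown and 1744 CPM in control libraries, means of 3) and CD68 (1049 and 1131 CPM) were abundant. Other macrophage genes were low, among them MRC1 (2.43 CPM in knockdown and 1.76 CPM in control libraries) and FCGR1A (5.02 and 7.11 CPM). CPM is the usual count scaled to library size, here with edgeR's TMM factors. Of 12 T cell genes, among them the receptors CD28, CTLA4, PDCD1, ICOS, CD40LG and CD2, 10 were not listed in the table, whose lowest row total is 10 counts. Of the other two, CD247 had at most 0.42 CPM in any library. TRAC averaged 7.55 ± 0.44 CPM in knockdown and 5.06 ± 0.55 CPM in control libraries (SD, n = 3 each; edgeR adjusted p = 0.0409, and between 0.0295 and 0.175 with 1 library left out, past the threshold only without control replicate 3). The summed level of both was 7.37 to 8.02 CPM in knockdown and 5.01 to 5.77 CPM in control libraries. Of 6 B cell genes, 4 were listed, at summed levels of 5.99 to 7.61 CPM in knockdown and 5.86 to 6.62 CPM in control libraries. The part of these genes in the ligand results was not tested.

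Short stretches at annotated starts of CD83 and CD274 are shown because these were the members that changed past the threshold. They were read from RefSeq promoter windows of 300 bases on GRCh38.p14, each spanning an annotated start. Windows were found for 6 of the 8 members, 8 windows in all, and 4 motifs were searched on both strands, with overlapping matches merged. The motifs were the NF-kB (kappaB) consensus, a pair of interferon regulatory factor (IRF) half-sites GAAANNGAAA, the gamma-activated site TTCNNNGAA and the STAT6 site TTCNNNNGAA. The capitals below mark matches to the motif named.
CD83, STAT6 site, chr6:14117221-14117250, plus strand: acttgtatgtTTCCATGGAAatctaacgcg
CD83, kappaB place 1, chr6:14117628-14117657, plus strand: ggcggggacgGGGGCGCCCCggcctaagcg
CD83, kappaB place 2, chr6:14117687-14117716, plus strand: ctgcccgccGGGGAATCCCCCgggctggcg
CD83, kappaB place 3, chr6:14117712-14117741, plus strand: tggcgcgcaGGGAAGTTCCCgaacgcgcgg
CD274, IRF half-sites, chr9:5450292-5450502, plus strand: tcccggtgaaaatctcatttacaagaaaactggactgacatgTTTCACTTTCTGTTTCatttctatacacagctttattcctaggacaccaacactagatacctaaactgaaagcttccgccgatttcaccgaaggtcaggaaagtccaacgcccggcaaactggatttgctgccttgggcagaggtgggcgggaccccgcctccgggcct

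CD83 had 2 windows, for the start of the gene and for a second annotated start inside it, and its kappaB places 2 and 3 lie in the first exon of an annotated CD83 transcript (5′ UTR). The downstream window held 3 kappaB places, the last of which began 51 bases before that second start, and 0.994% of 35116 windows held 2 or more (11.3% held any). The upstream CD83 window held 2 STAT6 matches, and 0.279% of windows held 2 or more (6.44% held any). The second of these matches lies past the annotated start and is not shown. The single CD274 window held 1 IRF place, beginning 208 bases before the start (3.57% of windows held any). In it, matches to the reverse complement of the pair overlap and were merged. The window also held a match to the gamma-activated site (7.66%). Among the other members, 1 of the 2 CD86 windows held a kappaB place, and the windows of CD58, CD80 and ICOSLG held no match to the 4 motifs. A match describes these letters only.

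Of the 8 ligands, CD83 fell, CD274 rose and 6 did not pass an adjusted p of 0.05 (edgeR quasi-likelihood test, knockdown over control, p-values adjusted over all genes tested). Across all 13405 genes tested 2.83% passed, 1.22% higher and 1.61% lower. The knockdown libraries lay wholly above the controls for CD274 and PDCD1LG2 and wholly below them for CD83 and ICOSLG, which makes 4 of 8 members against 20.0% of all genes tested (9.61% wholly above and 10.4% wholly below). In these bulk libraries fewer cells with a transcript and less of it per cell cannot be told apart. The median absolute log2 fold change was 0.15 over the 8 members, 0.09 over all genes tested and 0.33 over the 379 genes past the threshold. The members were chosen with earlier results of these data known, so neither the counts nor the median are read as an excess. The summed level of the 8 transcripts was 760 to 770 CPM in knockdown and 747 to 803 CPM in control libraries.

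**Figure D1:**
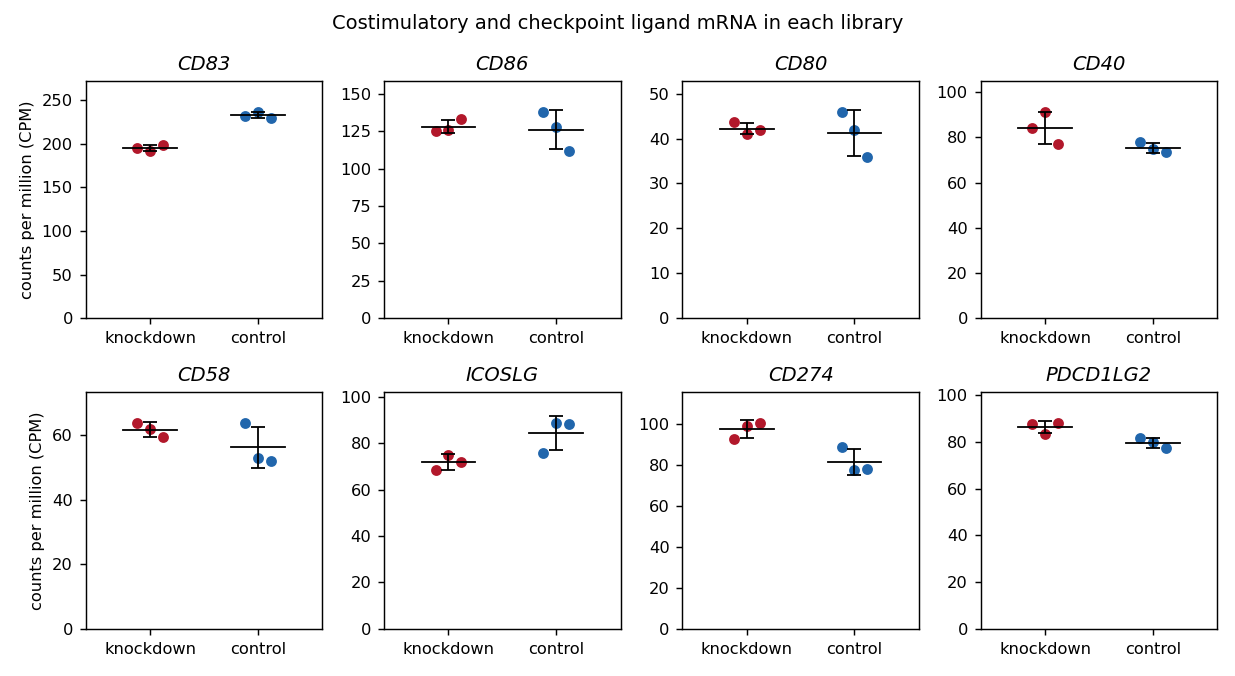
Level of each ligand transcript in CPM (vertical axes, each from 0) in the 3 knockdown (red) and 3 control (blue) libraries; points are libraries, ordered by replicate number, and lines with bars are mean ± SD. The groups do not overlap for CD83, ICOSLG, CD274 and PDCD1LG2.

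CD83 (ENSG00000112149.9, GRCh38 chr6:14117256-14136918, plus strand) was the most abundant member and the member that changed most reliably. Its level was 195, 192 and 198 CPM in knockdown libraries 1, 2 and 3, against 232, 237 and 230.1 CPM in control libraries 1, 2 and 3. Within each group the libraries lay close together, and a wide gap separated the groups. The log2 fold change was -0.26 ± 0.04 (SE), with means of 195 ± 3.33 CPM in knockdown and 233 ± 3.26 CPM in control libraries (SD, n = 3 each; edgeR adjusted p = 0.00299). With any 1 library left out the log2 fold change stayed between -0.27 and -0.24 and the edgeR adjusted p between 0.000897 and 0.0398. Of the 31-base words in its annotated transcripts 0.765% also occur in another gene, the pseudogene CD83P1.

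CD86 and CD80, the ligands of CD28 and CTLA-4, did not separate the groups. CD86 (ENSG00000114013.15, chr3:122055366-122121139, plus strand) had 125, 126 and 133 CPM in knockdown libraries, against 138, 128 and 112 CPM in control libraries. Control 1 was its highest library and control 3 its lowest, with all 3 knockdown libraries between them. The log2 fold change of CD86 was 0.02 (95% interval -0.11 to 0.16; edgeR adjusted p = 0.911). CD80 (ENSG00000121594.11, chr3:119524293-119559602, minus strand) had 43.6, 41.1 and 41.9 CPM in knockdown libraries, against 45.9, 41.9 and 35.9 CPM in control libraries. The same control libraries marked its extremes, and its log2 fold change was 0.03 (95% interval -0.14 to 0.20; edgeR adjusted p = 0.902). Both fold changes became -0.05 without control replicate 3, so neither kept its direction, and that of CD86 also changed sign without knockdown replicate 3. CD80 overlaps TIMMDC1 on the opposite strand and shares 24.0% of its 31-base words with it. The labels do not say whether counting used strand, so reads of the pair may have been exchanged. TIMMDC1 itself had 76.9 ± 1.83 CPM in knockdown and 78.4 ± 5.33 CPM in control libraries (SD, n = 3 each).

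The balance of CD80 to CD86 was likewise similar in the groups. The log2 ratio of their counts within a library was -1.52, -1.62 and -1.66 in knockdown libraries and -1.58, -1.61 and -1.64 in control libraries. The difference of means was 0.01, smaller than the SD of 0.08 between knockdown libraries (exact permutation test, two-sided p = 0.9, where 3 against 3 cannot go below 0.1).

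ICOSLG (ENSG00000160223.17, chr21:44217014-44240966, minus strand) was lower in knockdown by values that did not pass the threshold. It had 68.4, 75.1 and 71.9 CPM in knockdown libraries, against 76.0, 88.9 and 88.2 CPM in control libraries. Control 1 stood nearest to the knockdown group, within 1 CPM of knockdown 2. The log2 fold change was -0.23 ± 0.06 (SE; 95% interval -0.37 to -0.09; edgeR adjusted p = 0.0721). Without control replicate 1 it was -0.30 with an edgeR adjusted p of 0.00285, and without any other single library the edgeR adjusted p lay between 0.142 and 0.316.

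ICOSLG has a near-identical annotated copy, FP565260.3 (ENSG00000277117.4), elsewhere on the same chromosome at chr21:5022493-5040666, plus strand. Of the copy's 31-base words 95.4% are also found in ICOSLG, and 34.4% of those of ICOSLG are found in the copy, so the counts of the pair are uncertain. The copy had 33.4, 31.01 and 28.7 CPM in knockdown libraries, against 31.4, 32.4 and 33.2 CPM in control libraries, which overlap (log2 fold change -0.06 ± 0.07 SE, edgeR adjusted p = 0.777). Summed to a single row, ICOSLG and its copy had 102, 106 and 101 CPM in knockdown libraries, against 107, 121 and 121 CPM in control libraries. The log2 fold change of the sum was -0.18 ± 0.06 (SE), with an edgeR adjusted p of 0.104, and the groups still did not overlap. This sum was added after the data were seen.

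**Figure D2:**
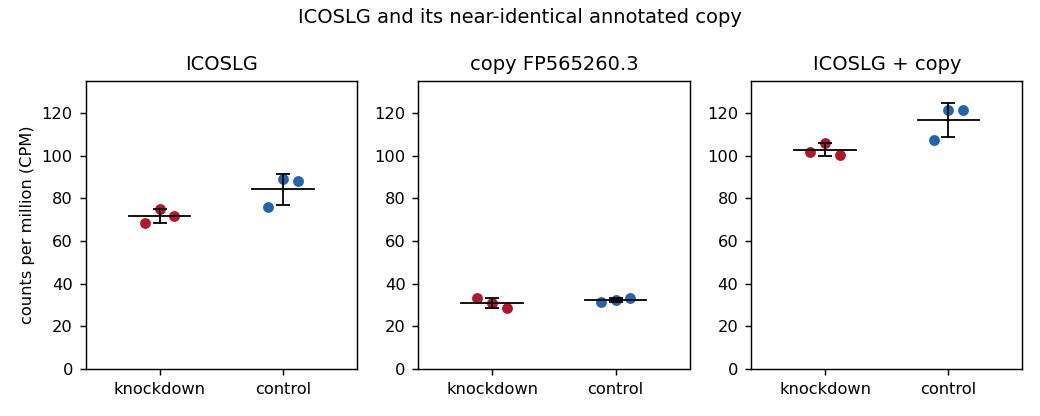
Level in CPM (vertical axis from 0) of ICOSLG, its annotated copy FP565260.3 and their sum in 3 knockdown (red) and 3 control (blue) libraries, with mean ± SD. The copy overlaps between the groups at 28.7 to 33.4 CPM, while ICOSLG and the sum are lower in every knockdown library.

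CD40 and CD58 were higher on average in knockdown but did not pass. CD40 (ENSG00000101017.13, chr20:46118272-46129863, plus strand) had 84.0, 91.2 and 77.0 CPM in knockdown libraries, against 77.9, 74.7 and 73.5 CPM in control libraries. Knockdown 3 lay below control 1, and the log2 fold change was 0.16 (95% interval 0.03 to 0.29; edgeR adjusted p = 0.220). CD58 (ENSG00000116815.15, chr1:116514535-116571039, minus strand) had 63.9, 62.0 and 59.5 CPM in knockdown libraries, against 63.7, 53.1 and 52.0 CPM in control libraries. Control 1 sat among the knockdown values. The log2 fold change of CD58 was 0.14 (95% interval -0.02 to 0.29; edgeR adjusted p = 0.400), and without control replicate 1 it was 0.23 (edgeR adjusted p = 0.0335).

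The PD-1 ligands lay above the controls in every knockdown library, and CD274 passed the threshold. CD274 (ENSG00000120217.13, chr9:5450503-5470566, plus strand) had 92.4, 98.9 and 100.4 CPM in knockdown libraries, against 88.3, 77.5 and 78.0 CPM in control libraries. Control 1 lay closer to knockdown 1 than to the other controls. The log2 fold change was 0.26 ± 0.06 (SE), a rise of 19.8% (edgeR adjusted p = 0.0281). This call depends on the libraries used. Leaving out control 2 gave an edgeR adjusted p of 0.168, control 3 gave 0.0549, knockdown 2 gave 0.156 and knockdown 3 gave 0.15. Leaving out control 1 (0.00131) or knockdown 1 (0.0433) kept CD274 past the threshold, and over all 6 fits the log2 fold change ran from 0.23 to 0.32.

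PDCD1LG2 (ENSG00000197646.7, chr9:5510570-5571254, plus strand) begins 40003 bases beyond the end of CD274 on the same strand. It had 87.6, 83.5 and 88.2 CPM in knockdown libraries, against 81.4, 79.9 and 77.3 CPM in control libraries. The groups did not overlap, but the gap was narrow and the log2 fold change of 0.12 ± 0.05 (SE; 95% interval 0.01 to 0.23) did not pass (edgeR adjusted p = 0.279). The log2 ratio of CD274 to PDCD1LG2 counts within a library was 0.08, 0.24 and 0.19 in knockdown libraries and 0.12, -0.04 and 0.01 in control libraries. These groups overlap, and their means differ by 0.14, with an SD of 0.08 in each (exact permutation test, two-sided p = 0.2, where the smallest possible is 0.1, so the test cannot pass 0.05 whatever the values).

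The other 5 tested genes within 500000 bases of CD274 lay nearer to 0. JAK2, the kinase that carries interferon signals, had a log2 fold change of 0.01 and an edgeR adjusted p of 0.956. PLGRKT, RIC1, ERMP1 and KIAA2026 had log2 fold changes from -0.06 to 0.05, and none passed.

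**Figure D3:**
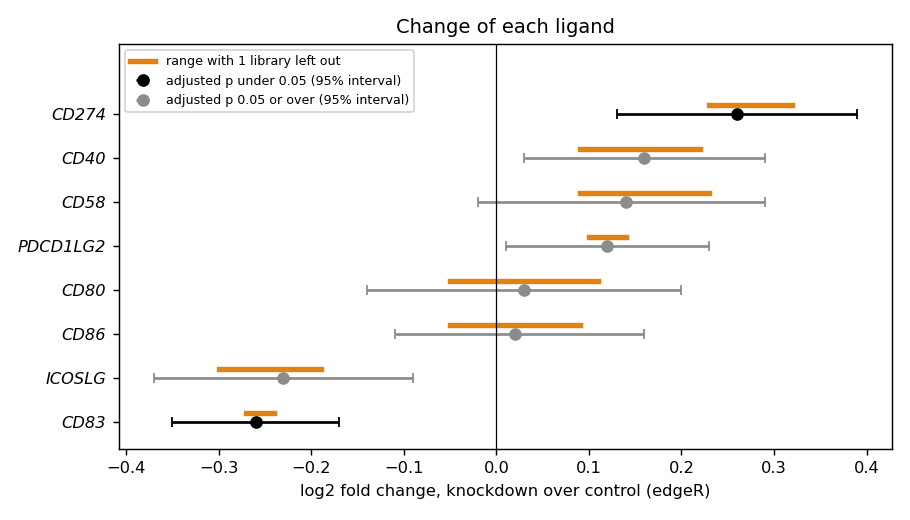
Log2 fold change of each ligand, knockdown over control, with its 95% interval (black where the edgeR adjusted p was under 0.05, grey otherwise); the orange bar is the range with 1 library left out. CD83 lies at -0.26 and CD274 at 0.26, while the bars of CD80 and CD86 cross 0.

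**Figure D4:**
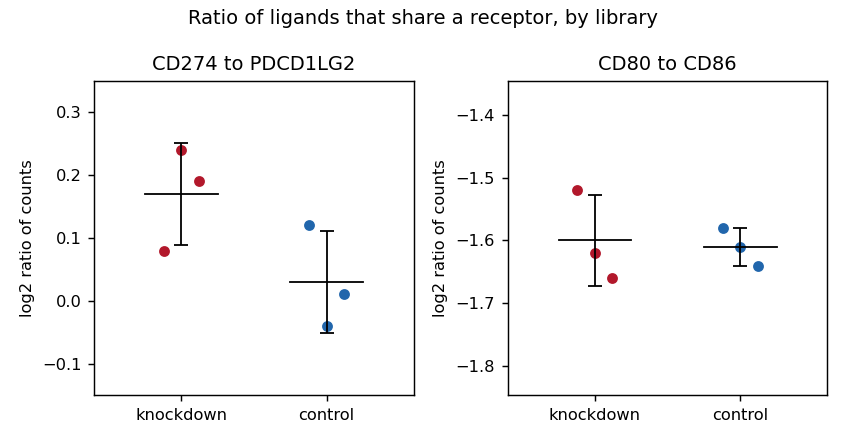
Log2 ratio of counts of CD274 to PDCD1LG2 and of CD80 to CD86 in 3 knockdown (red) and 3 control (blue) libraries, with mean ± SD; both vertical axes span the same width. The groups overlap in both panels.

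Levels of different ligands were compared per kilobase (kb) of annotated exon. CD83 stood highest at 85.1 ± 8.36 CPM per kb (SD over 6 libraries). CD86 (37.0 ± 2.55), PDCD1LG2 (35.1 ± 1.82), CD58 (33.1 ± 2.96) and CD40 (31.6 ± 2.65 CPM per kb) followed, and neighbours among these 4 overlapped in their ranges over libraries. CD274 (21.7 ± 2.42), CD80 (13.0 ± 1.04) and ICOSLG (8.36 ± 0.91 CPM per kb) followed without overlap. The ICOSLG level leaves out the counts of its near-identical copy, so its distance from CD80 is uncertain. With the longest annotated transcript as the length the order of PDCD1LG2, CD58 and CD40 changed, PDCD1LG2 moving to rank 5 of 8, and the other members kept their ranks. The lengths that Salmon used are not given in the sources used here.

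Variation between libraries differed by member. The coefficient of variation between control libraries was 1.40% for CD83, 2.65% for PDCD1LG2 and 3.04% for CD40, but 7.56% for CD274, 8.60% for ICOSLG, 10.3% for CD86, 11.5% for CD58 and 12.2% for CD80. Between knockdown libraries it ran from 1.71% for CD83 to 8.43% for CD40. Control 1 was the highest control library for CD80, CD86, CD40, CD58, CD274 and PDCD1LG2 and the lowest for ICOSLG. It also had the lowest share of counts from mitochondrially encoded mRNA, 1.88%, against 2.30% and 2.54% in the other controls and 2.02% to 2.10% in knockdown libraries. Of 13 such genes MT-ND3 fell (log2 fold change -0.19, edgeR adjusted p = 0.024; 2.83% of all genes tested passed). Without control replicate 1, 12 fell, beside 3.96% of all genes past the threshold in that fit. The part of this difference in the ligand results was not tested.

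Genes whose profiles over the 6 libraries were most like those of the called ligands were found by Pearson correlation of log2 CPM, as a description. For CD83 they were RAB31, a small GTPase of membrane traffic (r = 0.996; log2 fold change -0.17), and FP565260.6 (r = 0.996; -0.15). For CD274 they were NGRN (r = 0.991; log2 fold change 0.25) and the clone-named AC019080.1 (r = 0.988), the second of which averaged only 1.13 CPM. The search ran over all genes tested, and the best r was at least 0.991 for each of the 8 members.

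Of 69 further tested genes in 7 lists tied to these ligands, NECTIN2 rose and IDO1, BIRC3, MAP3K14 and IL10RA fell, which makes 7.25% beside the 2.83% of all genes tested; the lists were chosen with earlier results known. Of 8 tested B7 and butyrophilin genes outside the 8 ligands none passed in edgeR and 2 had an unadjusted p under 0.05 (median log2 fold change -0.10, beside -0.002 for all genes tested). Among all genes tested the share with such an unadjusted p was also well above 0.05, though lower than in this list. The list was chosen with earlier results known and the 2 were not tested against that share, so they are not read as an excess. CD276 (B7-H3) had 461, 479 and 453 CPM in knockdown libraries, against 398, 411 and 439 CPM in control libraries, and VSIR (VISTA), an inhibitory member, had 119, 121 and 118 CPM, against 124, 143 and 136 CPM in control libraries. Neither pair of groups overlapped, but the log2 fold changes of 0.16 and -0.17 had edgeR adjusted p of 0.0916 and 0.117. DESeq2 called CD276 (adjusted p = 0.0406). CD276 had an adjusted p of 0.02 in edgeR without control replicate 3, and VSIR of 0.00746 without control replicate 1.

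Of 5 tested TNF superfamily ligands none passed in edgeR and 0 had an unadjusted p under 0.05 in edgeR (median 0.18), and all were low. DESeq2 called none of them either, but it gave adjusted p-values to only 8726 of the 13405 genes. Whether these 5 were among those genes is not given here, so nothing is concluded from the DESeq2 result. The most abundant of the 5 were TNFSF14 (LIGHT), at 14.8 CPM in knockdown and 15.4 CPM in control libraries, and CD70, at 8.74 and 9.31 CPM. Of 12 further adhesion and checkpoint ligands 1 rose (median -0.06), beside 1.22% higher of all genes tested. NECTIN2, a ligand of the T cell receptors TIGIT and CD226, had 206, 216 and 204 CPM in knockdown libraries, against 180.4, 192 and 177 CPM in control libraries. Its log2 fold change was 0.19 ± 0.05 (SE; edgeR adjusted p = 0.0447). With 1 library left out NECTIN2 passed only without control replicate 1, and the edgeR adjusted p without each of the others ran from 0.0659 to 0.236. It also missed the threshold without the low-count filter (edgeR adjusted p = 0.0582). ICAM1, which binds the integrin LFA-1, had 1329 ± 28.6 CPM in knockdown and 1215 ± 32.4 CPM in control libraries (SD, n = 3 each; edgeR adjusted p = 0.123, DESeq2 adjusted p = 0.0362). LGALS9 (galectin-9) had a log2 fold change of -0.07 (edgeR adjusted p = 0.521).

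Among 8 tested cytokines and enzymes that shape T cell responses 1 fell, beside 1.61% lower of all genes tested. IDO1, which degrades tryptophan and so restrains T cells, had 165, 167 and 168 CPM in knockdown libraries, against 199, 196 and 184 CPM in control libraries. The groups did not overlap, and its log2 fold change was -0.21 ± 0.05 (SE; edgeR adjusted p = 0.0208). It passed without control replicate 1 or 3, while the edgeR adjusted p ran from 0.0986 to 0.13 when any of the other libraries was left out. EBI3, a subunit of interleukin-27, had a log2 fold change of -0.05, and IL1B of 0.02, neither past the threshold.

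**Figure D5:**
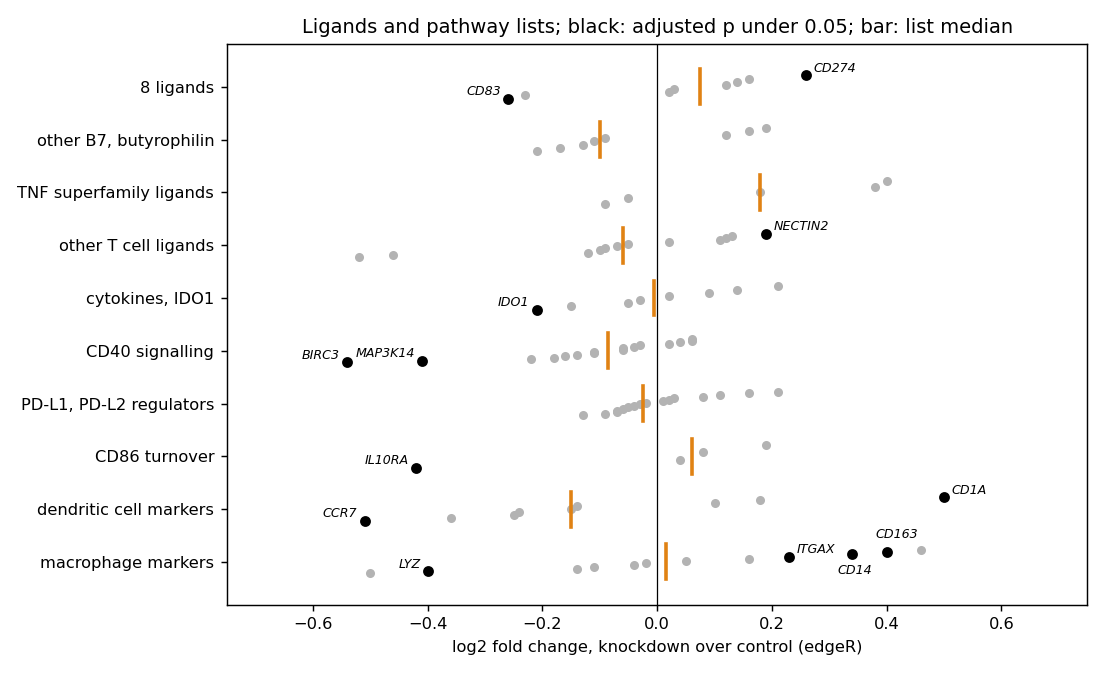
Log2 fold change, knockdown over control (horizontal axis), of every tested gene in the 8 ligands, 7 pathway lists and 2 marker lists; black points passed an adjusted p of 0.05 in edgeR and are named, grey points did not, and orange bars are list medians. CD83 and CD274 lie on opposite sides of 0, and no regulator of the PD-1 ligands is black, although IFNGR2 at 0.16 passed under other scalings and tools.

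The CD40 pathway had 2 of 16 genes lower and none higher (median -0.08), beside 1.61% lower and 1.22% higher of all genes tested. The BIRC3 result was known when this list was chosen, so counts of this list are not read as an excess. BIRC3, a ubiquitin ligase bound to the TRAF adaptors of CD40, had 164.1, 163.7 and 173 CPM in knockdown libraries, against 259, 236 and 233 CPM in control libraries (log2 fold change -0.54 ± 0.05 SE; edgeR adjusted p = 2.87e-05). MAP3K14 (NIK), the kinase of the noncanonical NF-kB branch, had 30.1, 32.3 and 29.9 CPM in knockdown libraries, against 40.6, 41.7 and 40.0 CPM in control libraries. Its log2 fold change was -0.41 ± 0.07 (SE; edgeR adjusted p = 0.00286), and both genes passed with any 1 library left out. Without control replicate 1 NFKB2 and REL also fell, making 4 of 16, beside 3.96% of all genes past the threshold in that fit. TRAF1, an adaptor of the same receptor, had a log2 fold change of -0.14 (edgeR adjusted p = 0.121), and the NF-kB inhibitor TNFAIP3 of 0.06 (edgeR adjusted p = 0.566).

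None of 16 tested regulators of CD274 and PDCD1LG2 passed in edgeR with TMM scaling (median -0.02), and 4 had an unadjusted p under 0.05. The share with such an unadjusted p was also well above 0.05 among all genes tested, though lower than in this list. Such a p was held by 5 of the 8 ligands, 6 of 16 CD40 pathway genes and 4 of 12 adhesion and checkpoint ligands. It was held by 1 of 8 cytokines and enzymes and 1 of 4 genes tied to CD86 turnover. The lists were chosen with earlier results known and these counts were not tested against that share, so none is read as an excess. The 4 regulators included IFNGR2, a chain of the interferon gamma receptor. IFNGR2 had 539.9, 535 and 539.8 CPM in knockdown libraries, against 496, 478 and 472 CPM in control libraries. Its groups did not overlap, and its log2 fold change of 0.16 ± 0.04 (SE) had an edgeR adjusted p of 0.0528, or 0.00729 without control replicate 1. It passed under RLE scaling (edgeR adjusted p = 0.0461), upper-quartile scaling (edgeR adjusted p = 0.0463), DESeq2 (adjusted p = 0.00798) and limma-voom (adjusted p = 0.0406).

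Of 4 genes tied to the turnover of CD86, IL10RA fell, beside 1.61% lower of all genes tested. The IL10RA result was known when this list was chosen, so the count is not read as an excess. This receptor chain for interleukin-10 had 642, 641 and 636 CPM in knockdown libraries, against 823, 867 and 872 CPM in control libraries (log2 fold change -0.42 ± 0.04 SE; edgeR adjusted p = 4.78e-05). IL10RB had a log2 fold change of 0.08, and MARCH1, the ubiquitin ligase opposed by CD83, of 0.04 at 27.6 CPM in knockdown and 26.9 CPM in control libraries; neither passed.

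CD83 is also known as a marker of mature dendritic cells. Of 11 dendritic cell genes 9 were listed and tested, CCR7 fell, CD1A rose and 7 did not pass (2.83% of all genes tested passed), and the summed level was 2067 to 2116 CPM in knockdown and 2172 to 2438 CPM in control libraries (median log2 fold change -0.15). CLEC9A and XCR1 were not listed in the table. The CCR7 result was known when the marker lists were chosen, so their counts are not read as an excess. CCR7, the homing receptor of mature dendritic cells, had 243, 236 and 223 CPM in knockdown libraries, against 317, 353 and 329 CPM in control libraries (log2 fold change -0.51 ± 0.05 SE; edgeR adjusted p = 4.49e-05). LAMP3 had 985, 985 and 955 CPM in knockdown libraries, against 1038, 1099.9 and 1095 CPM in control libraries (edgeR adjusted p = 0.0903). FSCN1 had 476 ± 8.59 CPM in knockdown and 564 ± 76.6 CPM in control libraries (SD, n = 3 each; edgeR adjusted p = 0.0838), and both LAMP3 and FSCN1 fell without control replicate 1. In the other direction, CD209 had 367 ± 4.43 CPM in knockdown and 324 ± 24.1 CPM in control libraries (SD, n = 3 each; log2 fold change 0.18, edgeR adjusted p = 0.0792), with no overlap, and it rose without control replicate 3. DESeq2 called LAMP3 lower (adjusted p = 0.0298) and CD209 higher (adjusted p = 0.0329). CD1A was low, at 9.77 and 6.92 CPM, and its call did not hold with any 1 library left out (edgeR adjusted p from 0.0520 to 0.219). Of 12 macrophage genes CD14, CD163 and ITGAX rose and LYZ fell (median 0.01), beside 1.22% higher and 1.61% lower of all genes tested. CD14 and LYZ passed with any 1 library left out, and CD163 and ITGAX in 3 of 6 such fits. The part of these marker genes in the CD83 and CD274 results was not tested.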

How the data were processed

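The authors deposited a table of estimated counts by gene symbol, in whole numbers. The submitters' processing notes name Salmon 0.11.2, DESeq2 and hg38 without roles; the counting strand and the rounding are not given in the sources used here. Samples were grouped by title. The test was the quasi-likelihood F test of edgeR 4.0.16 on 2 groups, two-sided, after TMM scaling and filterByExpr, adjusted by Benjamini-Hochberg over 13405 genes. R 4.3.3, limma 3.58.1, DESeq2 1.42.0, Python 3.11.15, scipy 1.17.1 and matplotlib 3.10.9 were also used. The SE is the absolute log2 fold change divided by the square root of F. All 8 ligands passed the low-count filter, with 373 to 2824 counts per library. Ratios used a pseudocount of 0.5 counts. The tests were checked on simulated data, with changes placed in genes drawn from all those tested. There edgeR recovered 44.7% of 1.25-fold changes and 98.7% of 4-fold changes.

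Positions, exon lengths and shared 31-base words came from GENCODE 29 on GRCh38. The members and lists were chosen with earlier results of these data known, among them those of BIRC3, CCR7 and IL10RA. Named from each list were genes past the threshold (at most 6) and the 2 most abundant others, and for likeness the 2 genes with the highest r. Some genes this rule names are not reported here. NFKB2, REL, CD209, MRC1, FCGR1A, TIMMDC1, FP565260.3 and the neighbours of CD274 were chosen after their values were seen. Alternatives were other normalizations, filters and tests, the replicate number as a block, and leaving out each library. Replicates differed by more than counting noise (chi-square over degrees of freedom 1.91 to 6.79), so none was counted as a duplicate.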

Additional observations from a re-analysis of the deposited data

How the results depend on the processing

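Under RLE and upper-quartile scaling, without a filter, with a minimum of 1 CPM in 3 libraries, and under DESeq2 and limma-voom, each of the 8 ligands kept its direction and its side of the threshold. CD83 had log2 fold changes from -0.27 to -0.24 over all alternatives and passed in each. CD274 passed in these alternatives (adjusted p from 0.011 to 0.0367), but with 1 library left out its log2 fold change ran from 0.23 to 0.32 and it did not pass in 4 of 6. With 1 library left out CD58 ran from 0.088 to 0.23, ICOSLG from -0.30 to -0.19, CD40 from 0.09 to 0.22 and PDCD1LG2 from 0.10 to 0.14. Over the same fits CD80 ran from -0.053 to 0.11 and CD86 from -0.050 to 0.091, changing sign without control replicate 3 and, for CD86, also without knockdown replicate 3. The count of genes past the threshold ran from 139 to 542 with 1 library left out, 55 to 214 higher and 84 to 328 lower, against 379, 163 and 216. With the longest transcript as the length, levels per kb were 46.9 for CD86, 44.4 for CD58, 46.0 for CD40, 24.5 for CD274, 15.3 for CD80 and 11.0 CPM per kb for ICOSLG. Replicates with the same number deviated together only weakly (r = 0.07, 0.09 and 0.05 over 11909 genes), so the numbers were not taken to pair the libraries, although each library correlated best with its own number. With the replicate number as a block, ICOSLG passed (log2 fold change -0.23, adjusted p = 0.0258), 488 genes passed in all, and no other ligand changed its call; among list genes IFNGR2, NFKB2, CD209 and FSCN1 passed as well (adjusted p = 0.0406, 0.0444, 0.0367 and 0.0291). The ratios of CD274 to PDCD1LG2 and of CD80 to CD86 had mean differences of 0.14 and 0.01 within replicate pairs. These equal the differences of group means by arithmetic, so they add no check. Each ligand rested on 373 to 2824 counts per library.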
